A study of Mus musculus with 20 samples.

Results

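Olfactory receptor genes encode the odorant receptors of the nose, and the promoters described here are those of the class II genes on mouse chromosome 2, where the largest class II clusters lie. All promoters on this chromosome whose gene symbol begins with Olfr were taken, which gave 275 of the 22480 promoters measured. A promoter is represented by a probe of 2200 bp, from 2 kb upstream to 200 bp downstream of the gene's start in the mm10 assembly, and its level is the number of normalized reads in that probe. The reads come from sperm DNA captured by its methylated CG sites (MBD-sequencing, capture with a methyl-CG binding domain), so that a probe gains reads when more of its CG sites are methylated or when more of that DNA was recovered.

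The sperm came from F1 males of 8 weeks of the strains C57BL/6J and FVB/N, with 5 control and 5 DEHP males in each strain, which makes 4 groups. Their mothers had been given corn oil (control) or di-(2-ethylhexyl) phthalate (DEHP), a plasticizer, in corn oil at 300 mg/kg/day by mouth from gestation day 9 to 19. The design asks how the sperm of both strains differs between DEHP and control, and how the strains differ from each other. The control libraries and the DEHP libraries were submitted separately, each set holding both strains. Treatment and submission therefore cannot be told apart in any change below. By the study's methods the DEHP libraries also had more read-pairs on average, and longer reads, than the control libraries. Each group's mean and SD, as the authors computed them, were used for a probe. The depth of single libraries and their values were not used here. However, where means plus and minus 1.79 SD of 2 groups do not overlap, no library of 1 group can overlap the other, because 5 values never lie further than that from their mean. Such groups are called separated below.

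Mammalian olfactory receptors fall into class I, which resemble the receptors of fish and lie in a single cluster on another chromosome, and class II, which are spread over many clusters. A mature olfactory neuron expresses a single receptor allele, the other receptor genes being held in heterochromatin. The coding sequence usually lies in a single exon, with short untranslated exons some kilobases upstream. Their promoters are poor in CG and rich in AT, with homeodomain sites (bound by LHX2) and O/E sites (bound by EBF factors). Some receptor genes are also expressed in testis and sperm. CG sites outside CG islands are generally methylated in sperm.

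Sperm identity was checked with imprinted promoters. The paternally methylated H19 ranked between the 90.1 and 95.0 percentile of all promoters in the 4 groups. The other marker listed as paternal, Meg3, had a mean of 25.8 ± 10.3 normalized reads (SD, n = 5) in C57BL/6J controls (percentile 90.5) and 5.2 ± 0.7 in FVB/N DEHP (percentile 52.0). Whether the Meg3 probe covers the stretch methylated in sperm was not checked. Sperm should lack the mark of 10 promoters methylated on the maternal allele. Of these, Snrpn had 0.5 ± 0.7 normalized reads in C57BL/6J controls and 1.1 ± 1.2 in FVB/N controls. With DEHP, Snrpn had 4.0 ± 1.0 in C57BL/6J and 4.4 ± 1.2 in FVB/N. Nnat went the other way, from 26.5 ± 8.6 in C57BL/6J controls to 9.5 ± 3.8 with DEHP. In FVB/N it had 18.1 ± 7.0 and 14.6 ± 2.4. The sum over the 10 went from 69.0 in controls to 45.5 with DEHP in C57BL/6J, and from 46.9 to 49.4 in FVB/N. The defining maternal marks were therefore not all absent, and their part in the results was not tested.

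The probes are shown first by the letters that carry the signal. Windows of 200 bases, each the stretch richest in CG sites of its probe that overlaps no annotated exon, are printed 5′ to 3′ on the gene's strand with CG sites in capitals (GRCm38). They belong to the member with the smallest p for a rise in C57BL/6J (Olfr1028, plus strand, chr2:85949543-85949742) and to the member with the most CG sites (Olfr1033, plus strand, chr2:86019262-86019461).
Olfr1028: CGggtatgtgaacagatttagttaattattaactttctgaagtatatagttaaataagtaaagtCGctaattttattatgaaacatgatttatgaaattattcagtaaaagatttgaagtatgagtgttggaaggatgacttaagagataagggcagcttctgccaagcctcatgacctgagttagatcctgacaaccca
Olfr1033: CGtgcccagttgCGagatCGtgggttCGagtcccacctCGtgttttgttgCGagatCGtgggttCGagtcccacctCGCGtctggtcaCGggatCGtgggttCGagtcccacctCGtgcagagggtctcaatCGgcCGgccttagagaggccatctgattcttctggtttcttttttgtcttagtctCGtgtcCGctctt
The window of Olfr1028 holds 2 CG sites. The window of Olfr1033 holds 18, most of them in a row of near-repeats and the last ones beyond it, and all of its bases are repeat-masked.

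The members are CG-poor. They hold a median of 7 CG sites (quartiles 5 and 9), against 8 in the 799 Olfr promoters on other chromosomes and 45 over all promoters. The median GC content is 32.9%, against 48.0% over all promoters, and the median ratio of observed to expected CG sites is 0.11 against 0.36. The repeat-masked share is alike, with a median of 22.0% against 19.2%. A probe with 78 CG sites, that of Olfr1033, stands alone, since the next is Olfr1220 with 21, followed by Olfr368 with 18. At the other end Olfr1133, Olfr1214 and Olfr1286 have 1 site each.

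CG sites are spread evenly over the upstream part of the probes. In each step of 200 bp from 2 kb upstream to the gene's start they number between 0.56 and 0.72 per probe, and they number 1.06 per probe in the 200 bp after the start. For 214 of the 272 members found in the GENCODE annotation that start is the start of the coding sequence, within 3 bp. An annotated transcript start lies upstream of the probe in 178 of them, at a median of 3554 bp before the gene's start. For these members the probe therefore covers sequence between that transcript start and the coding exon, and the word promoter is that of the deposited table. An annotated transcript start within the probe, ahead of the coding sequence, was found in 133 members. Some members, such as Olfr987 and Olfr988, have both kinds of start. The median change in C57BL/6J, as log2 ratio defined below, was 0.73 in these 178 members and 0.77 in the other 94, and in FVB/N 0.83 and 0.76. The start windows of RefSeq (250 bases before to 50 after a transcript start, GRCm38) were found for 226 members, with 228 windows. The homeodomain core TAATTA, on either strand, was in 57 of them (25%) and in 5.29% of all windows of that length, and the O/E core CCCNNGGG was in 1.75% and 13.7%. These shares were not adjusted for base composition, although the members' probes have a median GC content of 32.9%, against 48.0%. Whether either core is more or less frequent than the composition alone would give was not tested. A CG site was in 64.5% of the members' windows and in 94.6% of all.

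Along the chromosome the members form 3 clusters, separated by gaps of more than 1 Mb. The first holds 27 members from Olfr338 to Olfr368 (chr2:36374778-37331948), the second 214 from Olfr987 to Olfr1274-ps (chr2:85331697-90400839), and the third 34 from Olfr1275 to Olfr1318 (chr2:111231592-112156097). The density is 28.2, 42.2 and 36.8 members per Mb, and neighbouring probes start a median of 20051 bp apart. Olfr1299 and Olfr1300-ps1 have the same probe, so 274 probes are distinct. The minus strand holds 169 members and the plus strand 106, and probes of 20 members, Olfr1030 and Olfr1042 among them, overlap exons of another gene.

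In controls the members carried few reads. The median of their group means was 1.2 normalized reads in C57BL/6J controls and 0.9 in FVB/N controls, against 5.0 and 3.0 over all promoters and 2.1 and 1.3 over the Olfr promoters on other chromosomes. With DEHP the median was 2.70 in C57BL/6J, against 5.30 over all promoters. In FVB/N it was 2.30, against 4.90. Per CG site the order was the other way, with a median of 0.20 normalized reads per site in C57BL/6J controls and 0.44 with DEHP, against 0.14 and 0.13 over all promoters. A mean listed at 0 was found for 6 members in C57BL/6J controls, 14 in FVB/N controls, none in C57BL/6J DEHP and 1 in FVB/N DEHP. The median ratio of SD to mean was 1.0 in C57BL/6J controls and 1.11 in FVB/N controls, and 0.53 and 0.62 with DEHP, so that the control means are the less precise.

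The highest mean over the 4 groups was that of Olfr1048, followed by Olfr1033 and Olfr1042. In C57BL/6J, Olfr1048 had 7.2 ± 2.5 normalized reads in controls and 10.7 ± 4.5 with DEHP (SD, n = 5 for every value). Its FVB/N means were 5.5 ± 2.0 and 10.6 ± 3.7. Olfr1042 had 4.7 ± 2.6, 11.3 ± 3.9, 6.1 ± 1.8 and 8.0 ± 1.1 in that order. The lowest were Olfr1155 and Olfr1116-ps, followed by Olfr1118, Olfr1180 and Olfr1225 with the same mean, and no group mean of these was above 1.5. Over the 275 members, levels and CG sites had a Spearman rho of 0.48 in the controls of C57BL/6J and 0.55 with DEHP. For FVB/N the values were 0.24 and 0.41. Without Olfr1033 they were 0.48, 0.55, 0.23 and 0.41. These are descriptions across probes that share their libraries. The order of the members was shared more closely between the DEHP groups of the strains (rho 0.74) than between the control groups (rho 0.48).

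With DEHP most members were higher in both strains. The change is given as log2 of the DEHP mean plus 1 over the control mean plus 1, which understates the change of low probes. It was above 0 in 249 members in C57BL/6J (90.5%) and in 247 in FVB/N (89.8%), against 43.5% and 69.1% of all promoters. The change was above 0 in both strains in 222 members (80.7%), a share that was not counted over all promoters. Its median over the members was 0.74 for C57BL/6J and 0.82 for FVB/N. Over all promoters it was -0.10 and 0.35, so the members lay 0.84 and 0.47 above the median promoter. The 799 Olfr promoters on other chromosomes had medians of 0.58 and 0.82. Changes past 1 on the log2 scale were seen in 83 members in C57BL/6J, where 5.09% of all promoters passed it, and in 99 members in FVB/N, where 14.4% did.

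Tested one by one, 41 members (14.9%) were higher with DEHP in C57BL/6J and 2 were lower, by limma's moderated test at an adjusted p under 0.05 over all promoters. Over all promoters 2.87% were called higher and 13.3% lower. In FVB/N 13 members (4.73%) were called higher, where the background was 1.4%, and none lower, where it was 1.33%. At an unadjusted p under 0.05, 106 members were higher and 2 lower in C57BL/6J, where 8.45% and 21.3% of all promoters were. In FVB/N 109 members were higher and 1 lower, where 18.1% and 5.38% of all promoters were. The Olfr promoters on other chromosomes were called higher in 10.6% in C57BL/6J and 4.63% in FVB/N. Libraries were separated, with DEHP higher, in 9 members in C57BL/6J (0.249% of all promoters) and in 7 in FVB/N (0.774% of all promoters). Since Olfr1299 and Olfr1300-ps1 share a probe, the 41 members called in C57BL/6J are 40 distinct probes and the 9 separated ones are 8. The counts depend on scaling and on the variance model: with the group means scaled to equal sums 113 members were called higher in C57BL/6J, and without a variance trend 19. In FVB/N 11 were called higher with equal sums, 6 with equal medians and 19 without a variance trend, the last as many as in C57BL/6J.

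Among the members that rose in C57BL/6J, the smallest p belonged to Olfr1028. It had 0.2 ± 0.5 normalized reads in controls and 4.8 ± 0.8 with DEHP, a difference of 4.6 ± 1.05 (SE; limma adjusted p = 0.000724). No control library can have been above 1.23 and no DEHP library below 3.23. In FVB/N it had 1.1 ± 1.0 and 3.4 ± 1.8, and the change did not pass (adjusted p = 0.177). Olfr1260 had 1.9 ± 0.6 in C57BL/6J controls and 6.8 ± 1.3 with DEHP, a difference of 4.9 ± 1.44 (adjusted p = 0.00915). Olfr1106 had 1.4 ± 0.5 and 5.7 ± 1.4 (adjusted p = 0.0105), and Olfr1250 had 1.2 ± 0.8 and 4.8 ± 0.7 (adjusted p = 0.0195). In all of these the control and DEHP libraries of C57BL/6J did not overlap.

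In FVB/N the smallest p was that of Olfr1178. It had 1.1 ± 0.7 normalized reads in controls and 9.9 ± 2.0 with DEHP, a difference of 8.8 ± 1.56 (SE; limma adjusted p = 0.00703). No FVB/N control library can have been above 2.49 and no DEHP library below 6.18. In C57BL/6J it had 4.3 ± 2.8 and 7.4 ± 3.1 (adjusted p = 0.214), with groups that may overlap. Olfr1087 had 1.5 ± 0.9 in FVB/N controls and 9.0 ± 0.6 with DEHP (adjusted p = 0.0104), and Olfr1221 had 0.6 ± 0.6 and 5.6 ± 1.4 (adjusted p = 0.0232). Olfr1255 had 0.2 ± 0.5 and 5.5 ± 2.3 (adjusted p = 0.0240). The FVB/N libraries of these members were separated too.

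**Figure D1:**
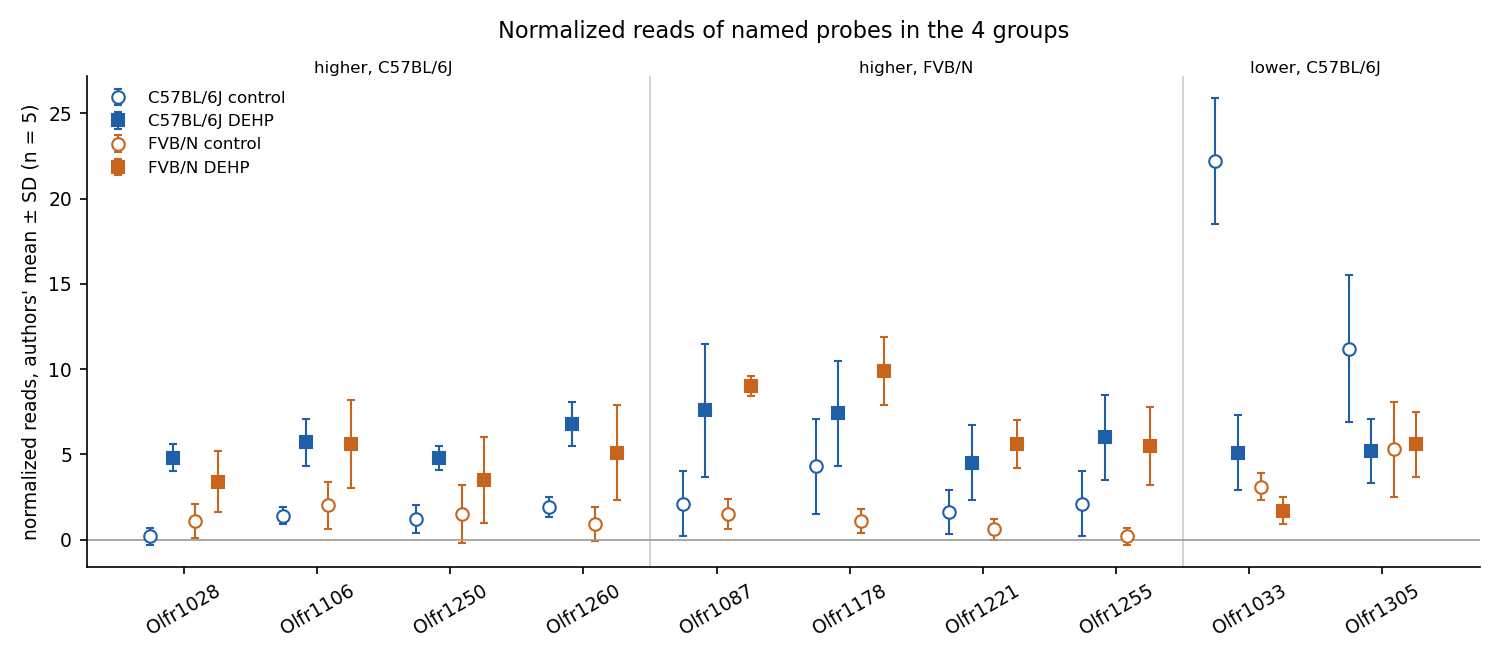
Normalized reads (y axis) of 10 probes, grouped as higher in C57BL/6J, higher in FVB/N and lower in C57BL/6J; points are the authors' means and bars their SD over 5 libraries. DEHP lies above control in both strains for the first 8 probes, while Olfr1033 falls from 22.2 to 5.1 in C57BL/6J.

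Calls shared by the strains were counted next. Olfr1016, Olfr1022, Olfr1087 and Olfr1255 were called higher in both, which is 9.76% of the members called in C57BL/6J and 30.8% of those called in FVB/N. Over all promoters 0.222% were called higher in both, which is 7.74% of those called higher in C57BL/6J and 15.9% of those in FVB/N. Olfr1016 and Olfr1022 were picked out after their values were seen. Olfr1022 had 0.7 ± 1.0 normalized reads in C57BL/6J controls and 4.0 ± 1.1 with DEHP, and 0.2 ± 0.4 and 4.2 ± 2.0 in FVB/N. Of the 41 members called in C57BL/6J, 39 were above 0 in FVB/N, and all 13 called in FVB/N were above 0 in C57BL/6J. Of all 275 members, called or not, 89.8% were above 0 in FVB/N and 90.5% in C57BL/6J. These counts are therefore near the members' own shares. The changes in the strains had a Spearman rho of 0.21 over the members.

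Against the rise of most members, Olfr1033 fell in C57BL/6J. It had 22.2 ± 3.7 normalized reads in C57BL/6J controls and 5.1 ± 2.2 with DEHP, a difference of -17.1 ± 3.17 (SE; limma adjusted p = 5.3e-05). The lowest value its control libraries allow is 15.4 and the highest its DEHP libraries allow is 9.17, so they did not overlap. In FVB/N it had 3.1 ± 0.8 in controls and 1.7 ± 0.8 with DEHP (adjusted p = 0.356). Its probe (chr2:86018640-86020839, plus strand, no variant listed between the strains) is 93.0% repeat-masked and holds 66 of its 78 CG sites in masked bases. Olfr1305 fell in C57BL/6J from 11.2 ± 4.3 to 5.2 ± 1.9 (adjusted p = 0.0374), with ranges that may overlap and a call that was lost with equal sums (adjusted p = 0.326). It had 5.3 ± 2.8 and 5.6 ± 1.9 in FVB/N. Olfr365 and Olfr1286, next in the order of p, did not pass: Olfr1286 had 1.2 ± 1.1 in C57BL/6J controls and 0.2 ± 0.3 with DEHP. In FVB/N no member was called lower, and the smallest p for a lower mean were those of Olfr355, Olfr1033, Olfr1153 and Olfr1107.

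The median change was above 0 all along the clusters and differed in size between stretches. All 14 bins of 500 kb with at least 10 members had a median change above 0 in both strains, from 0.49 to 1.01 in C57BL/6J and from 0.44 to 1.14 in FVB/N. In C57BL/6J the highest and the lowest lay side by side in the third cluster, 1.01 in the first bin (n = 20, Olfr1275 to Olfr1300-ps1) and 0.49 in the second (n = 14, Olfr1301 to Olfr1318). In FVB/N the bins of the second cluster went from 1.14 at its start (n = 21) through 1.04, 0.81 and 0.68 to 0.44 in the fifth (n = 23, Olfr1120 to Olfr1148), and were between 0.73 and 0.93 in the bins after it. Levels were lower there too. The median of FVB/N DEHP was 3.70 normalized reads in the first bin and 1.30 in the fifth, and that of C57BL/6J DEHP 4.10 and 1.90.

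Calls were spread over all clusters in C57BL/6J, with 4 of 27 members higher in the first (14.8%), 30 of 214 in the second (14.0%) and 7 of 34 in the third (20.6%). All 7 in the third lay in its first bin of 500 kb. In FVB/N 11 members of the second cluster and 2 of the third were called, and none of the first. Position and change had a Spearman rho of 0.16 for C57BL/6J and 0.23 for FVB/N in the first cluster (n = 27), of -0.06 and -0.07 in the second (n = 214), and of -0.38 and -0.23 in the third (n = 34). Between neighbouring members (271 pairs) the rho of the change was -0.09 for C57BL/6J and 0.16 for FVB/N. That of CG sites was -0.06. These values were not tested, and the reads behind them are sparse.

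**Figure D2:**
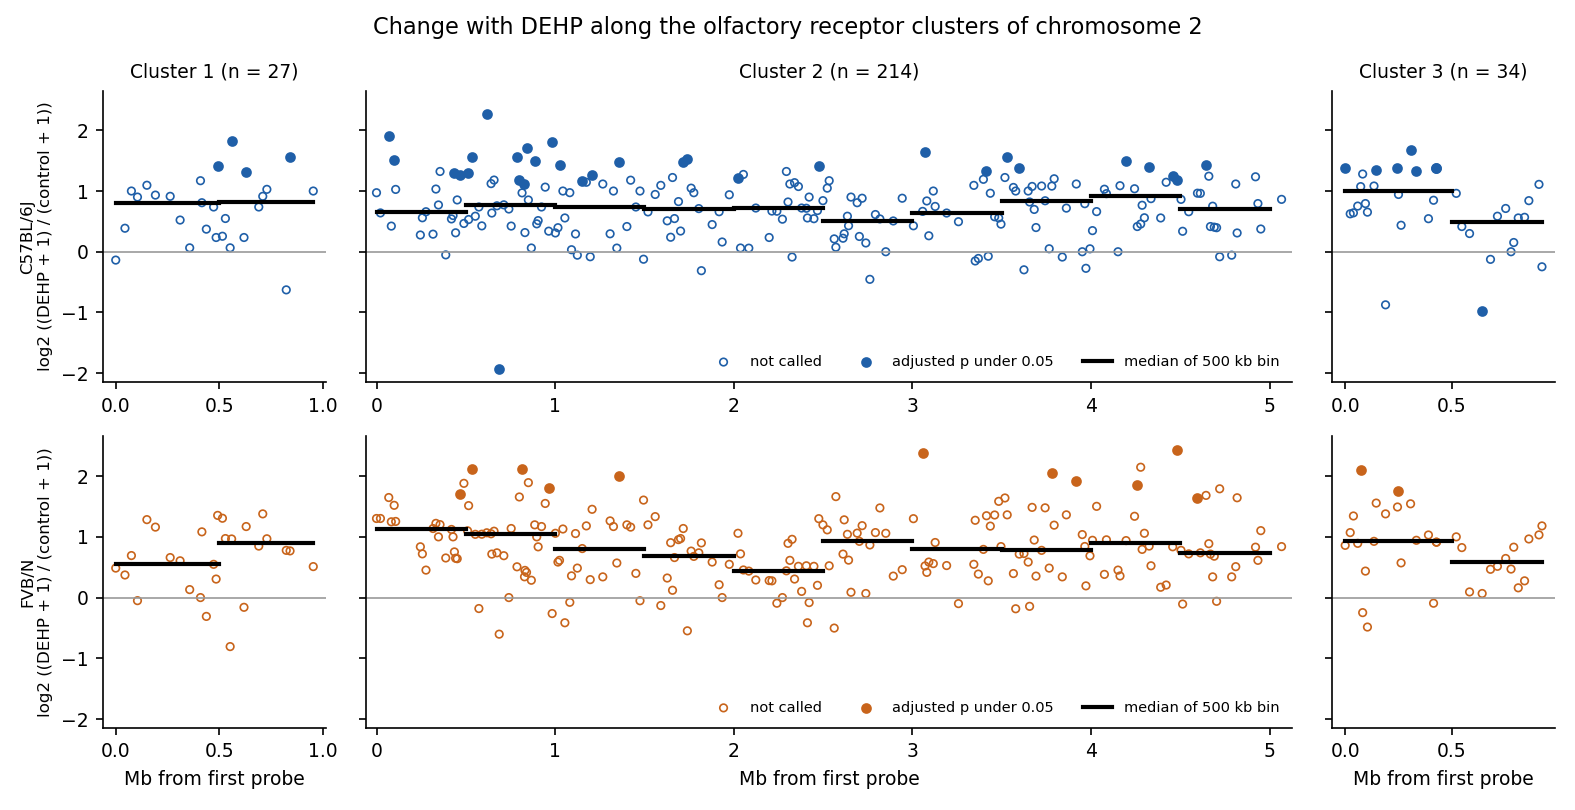
Change with DEHP (y axis, log2 ratio of means plus 1) of each of the 275 probes against its distance from the first probe of its cluster (x axis, Mb), for C57BL/6J above and FVB/N below. Filled points passed limma's test at an adjusted p under 0.05, black lines are medians of bins of 500 kb, and all of these medians are above 0.

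Variants did follow position. They are the homozygous differences of FVB/N from the C57BL/6J reference that the authors counted for each promoter. The label of this count names a stretch from 200 bp upstream to 2 kb downstream, the reverse of the probe. Whether the authors counted in the probe itself was not checked. The members held a median of 2, against 0 over all promoters, and 34.9% held none, against 53.9%. Among neighbours the rho of the number of variants was 0.69. In the first cluster 24 of 27 members held none and no member more than 1. The longest run without a variant was at the end of the second cluster, 17 members from Olfr1257 to Olfr1274-ps (chr2:89878828-90400839), and the next was 11 members from Olfr1284 to Olfr1300-ps1 in the third. The most variants were in Olfr1303 with 67, Olfr1206 with 52 and Olfr1109 with 51. Olfr1206, with 0.4 ± 0.6 normalized reads in FVB/N controls and 2.6 ± 0.9 with DEHP, and 1.2 ± 0.8 and 5.5 ± 1.6 in C57BL/6J, was called higher in C57BL/6J only (adjusted p = 0.00796 and 0.0766 in FVB/N); the difference between the strains did not pass (adjusted p = 0.427).

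**Figure D3:**
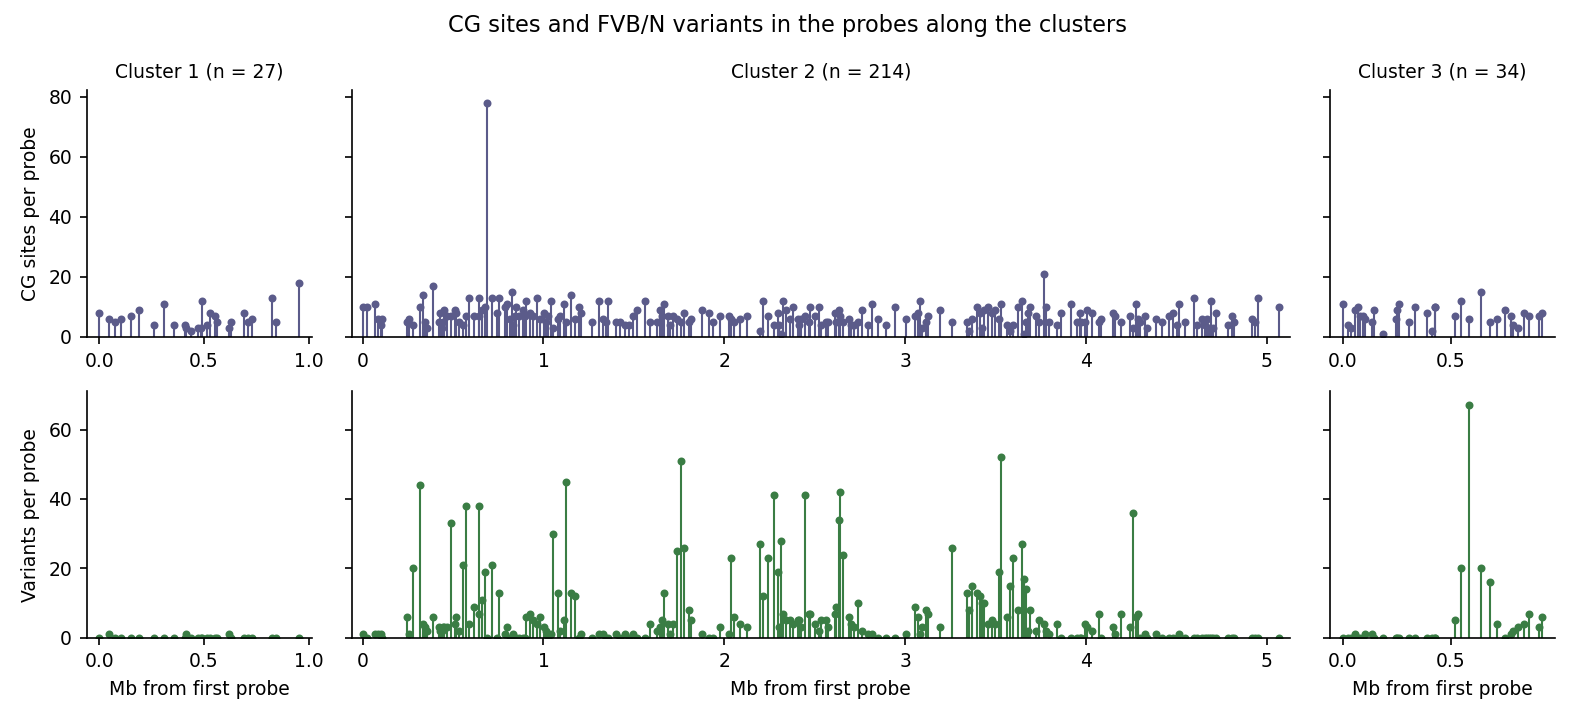
CG sites (upper row) in each probe and FVB/N variants (lower row) listed for it, against its distance from the first probe of its cluster (x axis, Mb). Olfr1033, with 78 CG sites, stands above all other probes, and the variants are absent from most of the first cluster, the end of the second and the start of the third.

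The ratio of the strains was lowest in the members with the most variants. With no variant (n = 96) the median log2 ratio of FVB/N over C57BL/6J was -0.17 in controls and -0.15 after DEHP, with 1 to 5 variants (n = 99) -0.33 and -0.19, and with 6 to 20 (n = 54) -0.28 and -0.10. With more than 20 (n = 26) it was -0.43 and -0.61, and FVB/N was the lower in 20 and 21 of the 26. The promoters of genes other than olfactory receptors had -0.97 and -0.52 with as many variants and -0.50 and 0.01 with none. Reads of FVB/N were aligned to a genome of C57BL/6J, and the part of alignment in these values was not tested. Members without a variant were called higher with DEHP in 19.8% for C57BL/6J and 7.29% for FVB/N, those with any in 12.3% and 3.35%, and the difference was not tested.

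Between the strains few members differed beyond the spread. In controls Olfr1033 was lower in FVB/N, with 3.1 ± 0.8 against 22.2 ± 3.7 normalized reads, a difference of -19.1 ± 3.07 (SE; limma adjusted p = 0.00121). It was the only member called, where 2.68% of all promoters were called lower in FVB/N, and no member was called higher. At an unadjusted p under 0.05, 29 members were lower and 4 higher, where 23.4% and 0.52% of all promoters were. The median log2 ratio of FVB/N over C57BL/6J in controls was -0.27 over the members and -0.54 over all promoters. Next in p were Olfr1030, with 0.4 ± 0.6 in FVB/N and 3.5 ± 1.6 in C57BL/6J (adjusted p = 0.0815), and Olfr1052 (adjusted p = 0.0918). The smallest p for a higher mean in FVB/N were those of Olfr1209, Olfr1122 and Olfr141, none past the threshold; Olfr1209 had 1.5 ± 1.7 in FVB/N controls and is listed at 0 in those of C57BL/6J.

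After DEHP 5 members were called lower in FVB/N, where the background was 0.916%: Olfr1030, Olfr1036, Olfr1061, Olfr228 and Olfr1107, of which Olfr1036, Olfr1061 and Olfr228 were picked out after their values were seen. Olfr1036 is listed at 0 in both FVB/N groups and had 2.5 ± 2.5 in C57BL/6J controls and 4.7 ± 2.0 with DEHP (limma adjusted p = 0.000364 after DEHP). No variant is listed for Olfr1036, but the authors counted only homozygous variants with a minimum of read coverage in FVB/N. Why FVB/N has no reads there was not tested. Olfr1036 is the only member at 0 in both FVB/N groups. Olfr1107 had 3.9 ± 1.7 in C57BL/6J DEHP and 0.3 ± 0.5 in FVB/N DEHP (adjusted p = 0.0101), and Olfr1030 had 6.0 ± 2.0 and 1.3 ± 1.1 (adjusted p = 0.0167). Olfr1061 had 4.3 ± 0.9 and 0.8 ± 0.4 (adjusted p = 0.0441), and Olfr228 had 5.5 ± 2.9 and 1.1 ± 1.0 (adjusted p = 0.0190). Without a variance trend none of the 5 passed.

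The effect of DEHP was tested for a difference between the strains in all 4 groups. Olfr1033 was the only member called, with a change 15.7 normalized reads lower in C57BL/6J than in FVB/N (-15.7 ± 2.97, SE; adjusted p = 0.00868), where 0.0578% of all promoters were called in that direction. Both of these calls of Olfr1033 between the strains were lost on scaling the group means to equal sums and on scaling them to equal medians. Olfr1107 came next (adjusted p = 0.129), with control and DEHP means of 0.7 ± 1.0 and 3.9 ± 1.7 in C57BL/6J. Its FVB/N means were 0.9 ± 0.9 and 0.3 ± 0.5. For Olfr1028, called in C57BL/6J alone, the changes differed by 2.3 ± 1.39 (adjusted p = 0.381). For Olfr1178, called in FVB/N alone, they differed by -5.7 ± 2.44 (adjusted p = 0.231).

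Promoters of other genes with as few CG sites were also higher with DEHP. In probes of 7 or 8 CG sites the median change in C57BL/6J was 0.74 over 64 members, 0.74 over 163 Olfr promoters on other chromosomes and 0.58 over 388 promoters of other genes, and in FVB/N it was 0.93, 0.91 and 0.77. In probes of 9 to 11 sites the members (n = 52) had 0.85 in C57BL/6J, against 0.60 and 0.53, and 0.94 in FVB/N, against 1.0 and 0.80. With 12 to 21 sites the values in C57BL/6J were 0.64 over 27 members, 0.32 over 176 Olfr promoters on other chromosomes and 0.03 over 2710 promoters of other genes. In FVB/N these had 0.82, 0.91 and 0.66. The sets were not matched within this range: only 4 of all members, Olfr1033 among them, hold more than 15 sites. Their median levels in C57BL/6J controls also differed, with 2.8, 6.0 and 8.1 normalized reads in the same order. In the CG-poorest probes, of 1 to 4 sites, the change was 0.62 over 51 members, 0.71 over 89 Olfr promoters on other chromosomes and 0.42 over 114 promoters of other genes in C57BL/6J. For FVB/N it was 0.52, 0.70 and 0.42. With 5 or 6 sites it was 0.78, 0.67 and 0.55 in C57BL/6J. For FVB/N the values there were 0.72, 0.68 and 0.62. The share called higher in C57BL/6J was 5.88% of the members and 6.14% of the promoters of other genes with 1 to 4 sites. It was 12.5% and 9.68% with 5 or 6 sites, and 18.8% and 12.1% with 7 or 8. With 9 to 11 sites it was 23.1% and 10.3%, and with 12 to 21 sites 14.8% and 4.28%. The Olfr promoters on other chromosomes had 8.99%, 7.41%, 13.5%, 16.8% and 8.52% in the same order of sites. The number of CG sites and the change had a rho of 0.05 over the members in C57BL/6J and 0.24 in FVB/N. No difference between these sets was tested.

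**Figure D4:**
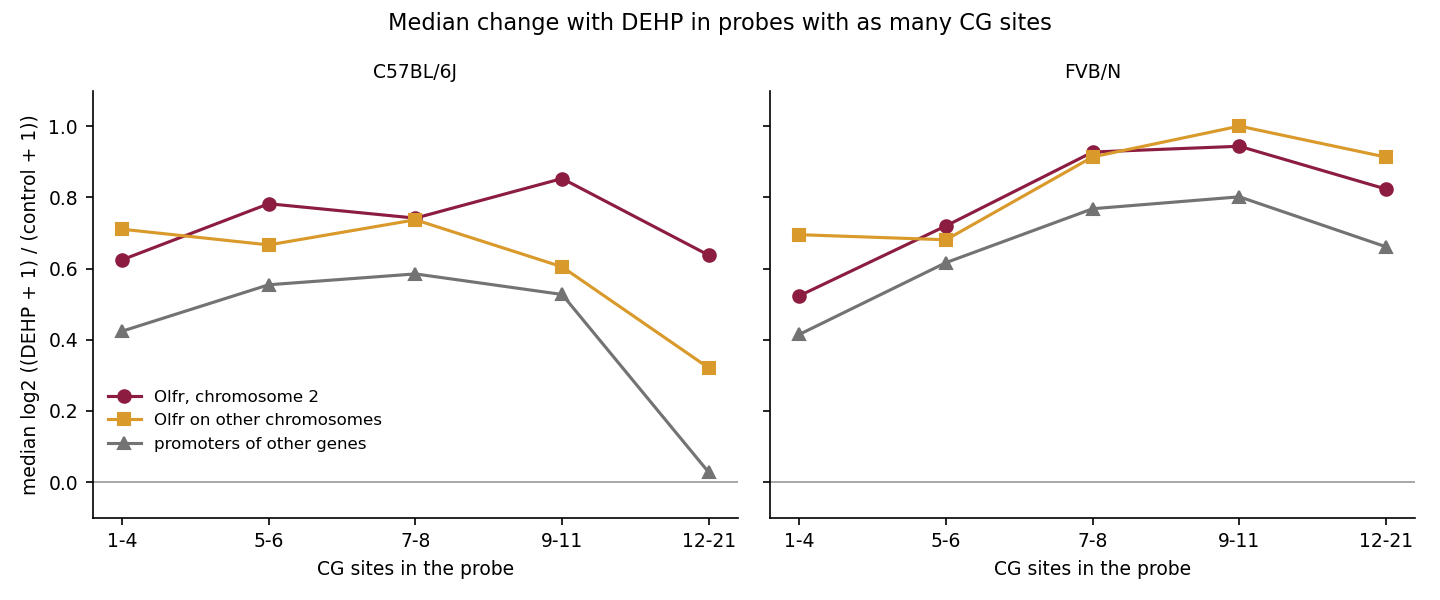
Median change with DEHP (y axis, log2 ratio of means plus 1) in probes grouped by their number of CG sites (x axis), for C57BL/6J and FVB/N. The medians of the members lie above those of the promoters of other genes in every group of CG sites, and all are above 0.

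The genes that act with the receptors were described in the same way. A list of 30 genes of olfactory signal transduction and receptor choice, all measured, had a median of 57 CG sites. No gene of it was called higher with DEHP in either strain, where 2.87% (C57BL/6J) and 1.4% (FVB/N) of all promoters were. With 30 genes such counts are small, and their difference from the shares over all promoters was not tested. In C57BL/6J 5 were lower, and in FVB/N 1, where 13.3% and 1.33% of all promoters were called lower. Omp, the olfactory marker protein of mature neurons, fell from 97.6 ± 28.1 to 26.5 ± 12.1 normalized reads in C57BL/6J and from 69.4 ± 20.6 to 28.7 ± 9.3 in FVB/N (limma adjusted p = 0.000405 and 0.0252). Ano2, a calcium-activated chloride channel of the cilia, fell from 37.1 ± 8.7 to 15.7 ± 3.2 in C57BL/6J, and Cngb1, a subunit of the cyclic nucleotide-gated channel, from 45.6 ± 16.4 to 19.5 ± 8.0. Rtp2, which helps carry receptors to the membrane, and Ebf2, an O/E factor, were the others that fell there. The list's median change was -0.15 for C57BL/6J and 0.28 for FVB/N.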

How the data were processed

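The members and lists were chosen with earlier results of these data known. The authors aligned read-pairs to mm10 with Bowtie 0.12.7, counted the pairs overlapping each probe and normalized them with edgeR. The signal values used are the authors' group means and SDs of normalized reads, deposited with 1 decimal. CG sites and variants are the authors' annotation, and their fold changes, p-values and FDR, and expression and ontology columns, were not used. The depths and values of individual libraries were not used; by the study's methods DEHP libraries had more and longer read-pairs on average.

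From the means and SDs, limma 3.58.1 (R 4.3.3) gave moderated tests (8 degrees of freedom for 2 groups, 16 for 4, variance trend on level), two-sided, with Benjamini-Hochberg adjustment over all promoters. Bounds of separation were widened by 0.05 for rounding. On simulated data 5.01% of unchanged promoters had a p under 0.05 in C57BL/6J, and 63% of 4-fold and 14% of 2-fold changes were recovered there; in FVB/N 17% and 0% were. Sequence came from GRCm38.p6, and the windows of some members are not reported here.

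Named members were, for each strain and direction, the 4 with the smallest p among separated ones (then by p), the 3 highest and lowest levels, the most CG sites and variants, the smallest p between control strains and for the interaction, and the ends of clusters.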

Additional observations from a re-analysis of the deposited data

Results flagged for a closer look

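Counted in normalized reads and with the means as deposited, the change of Olfr1033 with DEHP differed between the strains. The interaction was -15.7 ± 2.97 normalized reads (SE; limma adjusted p = 0.00868), from 22.2 ± 3.7 to 5.1 ± 2.2 in C57BL/6J and from 3.1 ± 0.8 to 1.7 ± 0.8 in FVB/N (SD, n = 5). With means scaled to equal sums or equal medians the adjusted p was 0.632 and 0.176. FVB/N controls, at 3.1, could not have fallen by as many reads as C57BL/6J did. A difference between the ratios was not tested.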

How the results depend on the processing

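The members' median change kept its direction under every scaling, filter and pseudocount tried. It was between 0.65 and 1.11 in C57BL/6J and between 0.45 and 1.32 in FVB/N, the highest values with a pseudocount of 0.1 and the lowest with means scaled to equal medians. The median of all promoters did not keep it: with equal sums it was 0.33 in C57BL/6J, and with equal medians -0.18 in FVB/N. Counts of calls moved more. With equal sums 113 members were called higher and 1 lower in C57BL/6J, 17 had separated libraries, and none was called for the strain difference in controls or the interaction. With equal medians 6 were called higher and 3 separated in FVB/N, and 0 for the control strains and the interaction. Without a variance trend 19 were higher and 1 lower in C57BL/6J, 19 were higher in FVB/N, and 0 were called between strains after DEHP. Olfr1033 kept its call in C57BL/6J, but its strain difference in controls had an adjusted p of 0.052 with equal sums and 0.071 with equal medians; Olfr1305 had 0.326 with equal sums and 0.081 without a trend. The same number of clusters, 3, was found with gaps of 0.3 Mb too, and all medians of bins of 250 kb with at least 5 members were above 0. Leaving out the CG-richest member, chosen after seeing the data, gave medians of 0.74 and 0.83. Leaving out libraries could not be run, since only group means were used. The groups hold different males, so the design has no pairing to use. The number of litters behind the 5 males of a group is not given, and the tests treat these males as independent.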
